A study of Homo sapiens with 9 samples.

Results

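The genes described here encode the machinery of vesicle fusion and regulated secretion, here in a neuroblastoma line of human origin, SMS-KCNR. They were taken by symbol from the platform's probe annotation: SNARE proteins and their binding partners, synaptotagmins, rabphilins, complexins, priming factors, active zone scaffolds, synapsins and proteins of the vesicle membrane. The symbols matched 93 of the 14884 named genes, 84 of them protein-coding and 9 of them antisense, divergent, readthrough or pseudogene entries. Cells grown in serum-containing medium were treated for 30 hours with DMSO, with 5 µM simvastatin, or with 5 µM simvastatin plus 2 mM mevalonate, and each of these 3 groups has 3 one-channel Affymetrix arrays. All arrays come from this 1 cell line. The series calls the 3 samples of a group independent, with no word on separate days, so the p-values measure the spread between these samples, part of which may be technical.

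Secretory vesicles fuse when a SNARE protein on the vesicle zips together with SNARE proteins on the target membrane. Syntaxin-binding proteins guide this assembly, priming factors make docked vesicles ready, calcium sensors of the synaptotagmin family trigger fusion, and the ATPase NSF takes the spent SNARE complexes apart. Neuroblastoma cells descend from the sympathetic nervous lineage and store catecholamines and peptides in dense-core granules, which use much of the same machinery. Simvastatin blocks HMG-CoA reductase and so the synthesis of mevalonate, the precursor of cholesterol and of the isoprenoid anchors of Rab proteins.

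Values are log2 expression as deposited, 1 value per probeset and array, and a gene with several probesets is represented by the one with the highest mean. Members were compared in a limma fit over all 14884 genes, and a gene is said to have risen, fallen or changed where its Benjamini-Hochberg adjusted p over all of them was under 0.05. Errors of changes are limma's standard errors. The array medians lay between 5.17 and 5.21. Of the 93 members 22 had a mean under the median of all probesets, 5.19, where changes may be less well determined. None of these 22 changed in the fit. Of 12 noradrenergic markers 11 were measured, with means from 8.58 to 10.8, all above that median. Of the mesenchymal markers 5 were measured, with means from 4.49 to 8.35, and 4 of them lay above that median. FN1 fell with simvastatin, and VIM, PRRX1, YAP1 and CD44 did not pass the test. The 4 measured Schwann and glial markers had means from 4.65 to 5.80, and 3 of them lay above the median of all probesets. The 3 measured blood and endothelial markers lay below it. Of the 11 measured noradrenergic markers 8 fell with simvastatin and 0 rose, against 7.38% and 5.98% of all genes. When mevalonate was added 7 rose and 0 fell, against 5.31% and 5.72% of all genes. The part of this in the results below was not tested.

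With simvastatin 13 of the 93 members rose, against 5.98% of all genes, and 9 fell (9.68%, against 7.38% of all genes). The median log2 change of the members was 0.03 and that of all genes 0.01. The median absolute change was 0.13 for the members and 0.10 for all genes. Only RPH3A changed at least 2-fold, and CADPS, SYT11, SYNGR2 and SYT5 were the other members with a change of 0.5 or more. In several families 1 member rose while another fell. The calls of SYN1, SYN2, SYT1, SYT5 and SYT11 held in all 17 alternative settings given at the end. Those of SV2C, RPH3AL, SYT17 and RIMS4 were lost in 10, 8, 4 and 2 of these settings. How often this pattern occurs in other gene families was not counted. When both the fit and the adjustment ran over all 53617 probesets, 8 members rose and 7 fell.

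**Figure D1:**
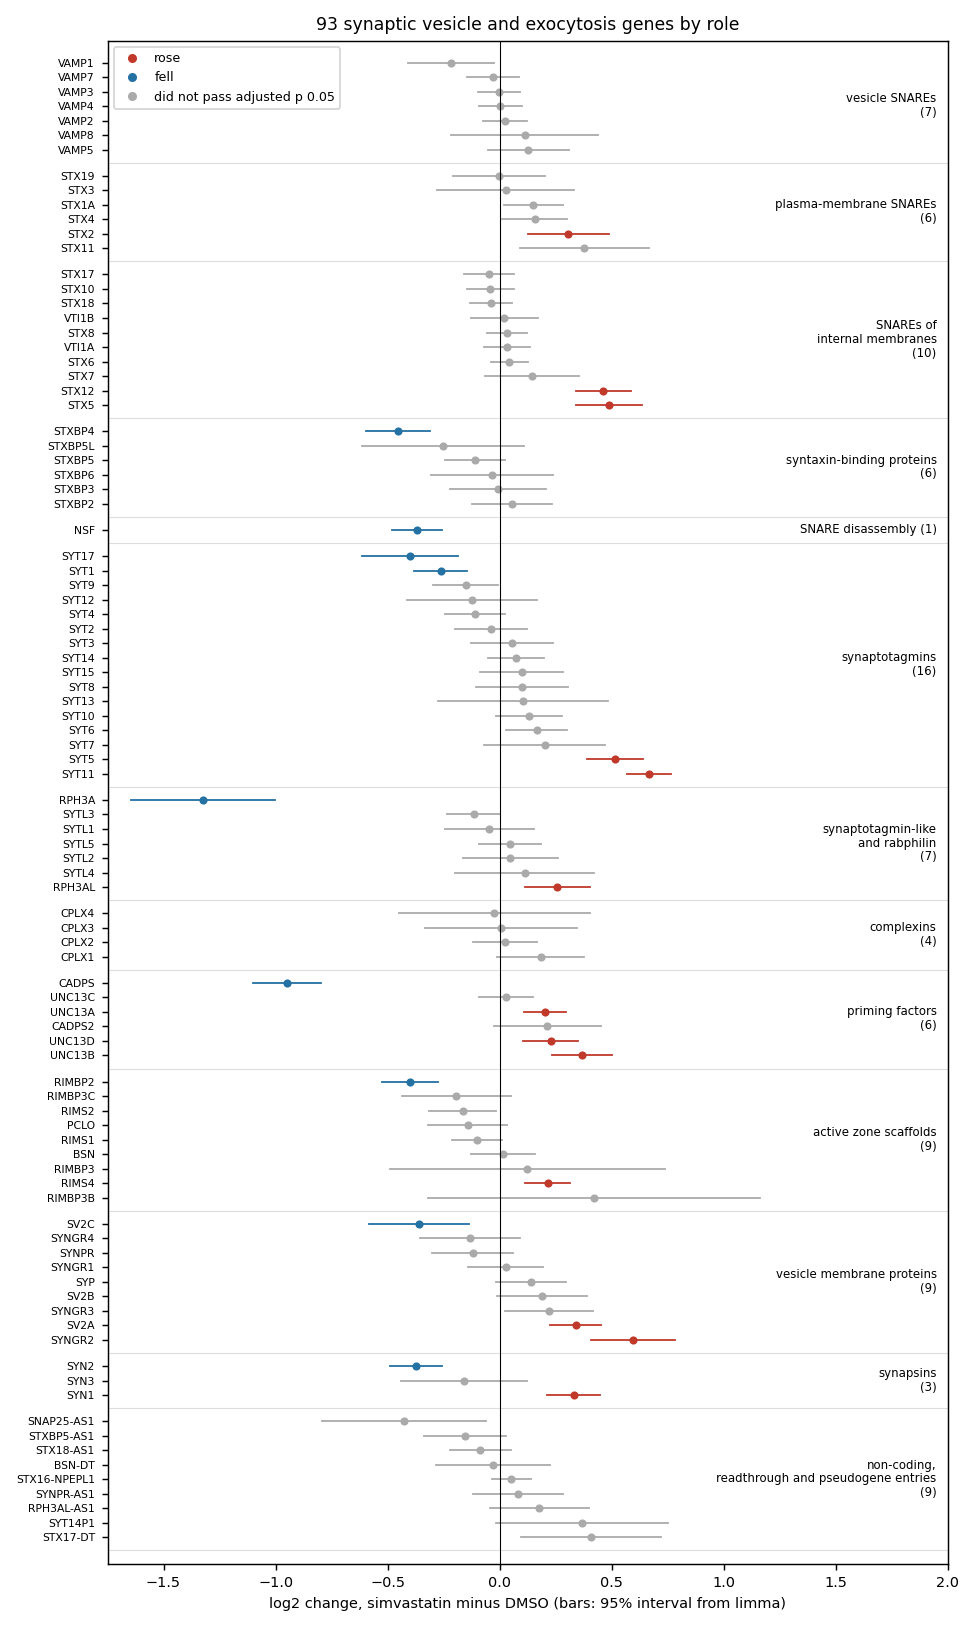
Log2 change with simvastatin against DMSO for each of the 93 members, grouped by role, with its 95% interval from limma (3 arrays a group). The 9 members that fell (blue) and the 13 that rose (red) are spread over most roles, and RPH3A, at -1.32, lies farthest from 0.

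Among the SNAREs themselves 3 syntaxins rose and none fell in the limma fit. They were 1 of 6 plasma-membrane SNAREs and 2 of 10 SNAREs of internal membranes, against 5.98% of all genes that rose and 7.38% that fell. Syntaxin 5, encoded by STX5, works between the endoplasmic reticulum and the Golgi. It read 7.20, 7.25 and 7.28 with DMSO and 7.77, 7.63 and 7.80 with simvastatin, so that the groups did not overlap. This was a 1.40-fold rise (log2 change 0.49 ± 0.06 SE, adjusted p = 0.00145). STX12, an endosomal syntaxin, read 7.33, 7.16 and 7.31 with DMSO and 7.77, 7.68 and 7.74 with simvastatin. It rose 1.38-fold (0.46 ± 0.05, adjusted p = 0.000766). STX2, a syntaxin of the plasma membrane, went from 8.62 ± 0.14 (SD, n = 3) to 8.92 ± 0.09, a rise of 0.31 ± 0.08 (SE, adjusted p = 0.0367). STX2 missed the threshold when DMSO replicate 2 or 3, simvastatin replicate 1 or 2 or any simvastatin plus mevalonate array was left out, with adjusted p from 0.0535 to 0.108.

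The promoter of STX12 is shown because the gene rose with simvastatin and fell when mevalonate was added, and because it holds a match to the cAMP response element. Sequences are RefSeq windows of build GRCh38.p14, from 250 bases before to 50 bases after the annotated start, found for 71 of the 93 members. The 250 bases before the start are printed. Each window was searched on both strands for 6 sets of letters: TGACGTCA (cAMP response element), TTCAGCACC (left part of the RE1 element bound by the repressor REST), TCACNCCAC (an SREBP element), TGATGNAA (an ATF4 element), CACGTG (a MYC E-box) and GGGCGG (GC box). The match in STX12 begins 194 bases before the start, and capitals also mark its 4 GC boxes (chr1:27772969-27773218, plus strand).
STX12: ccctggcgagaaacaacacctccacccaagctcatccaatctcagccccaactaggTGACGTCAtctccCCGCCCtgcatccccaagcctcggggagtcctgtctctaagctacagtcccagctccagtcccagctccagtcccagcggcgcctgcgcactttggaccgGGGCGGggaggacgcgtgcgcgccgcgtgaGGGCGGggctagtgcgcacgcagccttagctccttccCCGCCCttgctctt

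The cAMP response element letters occurred in 1.98% of 27305 windows and in 3 of the 71 member windows. Among the 16 members that changed when mevalonate was added to simvastatin, 15 had a window, and 2 of these held the element. The SREBP and ATF4 letters occurred in 0 of these 15 windows, against 1.15% and 3.67% of all windows, and the E-box letters in 1, against 7.43%. A GC box lay in 11 of the 15, in 49 of the 71 and in 44.6% of all windows. Such matches describe the letters and are not evidence of binding.

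Among the other SNAREs of internal membranes, STX6, STX7, STX8, STX10, STX17, STX18, VTI1A and VTI1B had log2 changes from -0.05 to 0.14 and did not pass the test. At the plasma membrane STX1A, the neuronal syntaxin that binds synaptotagmin, read 6.97, 6.90 and 7.01 with DMSO and 7.14, 7.01 and 7.18 with simvastatin. The groups did not overlap, but the highest DMSO array (7.00509) and the lowest simvastatin array (7.00544) were nearly equal. The STX1A change of 0.15 (95% interval 0.02 to 0.28) had an adjusted p of 0.145. STX11, a syntaxin of immune cell granules, had a change of 0.38, above that of STX2, with a wide interval (0.09 to 0.67) and an adjusted p of 0.0946. Its groups did not overlap, though the highest DMSO array and the lowest simvastatin array both read 5.55. STX3, STX4 and STX19 had changes from 0.00 to 0.16. Of the 7 vesicle SNAREs 0 changed in the limma fit, where 5.98% of all genes rose and 7.38% fell. With so few genes this is not read as a trait of the vesicle SNAREs. Of the 7, 1 had an unadjusted p under 0.05 (VAMP1, -0.22, adjusted p = 0.146) and 0 were called under any alternative setting. VAMP2, the SNARE of synaptic vesicles, stayed between 7.04 and 7.17 on all 9 arrays, with a change of 0.02 (95% interval -0.07 to 0.12). Replicates 2 and 3 of both DMSO and simvastatin hold the identical value 7.07991, so the spread of VAMP2 may be understated. VAMP3, its relative on recycling endosomes, had a change of 0.00 (-0.10 to 0.09), and VAMP4, VAMP5, VAMP7 and VAMP8 lay between -0.03 and 0.13.

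NSF, the ATPase that recycles SNARE complexes, fell. It read 8.93, 8.84 and 8.88 with DMSO, 8.54, 8.46 and 8.54 with simvastatin and 8.80, 8.90 and 8.88 with simvastatin plus mevalonate. The simvastatin arrays stood below the other 6. The fall was 1.29-fold (-0.37 ± 0.05, adjusted p = 0.00146). Of the 6 measured syntaxin-binding proteins only STXBP4, known for its role in the insulin-regulated delivery of glucose transporters, changed in this fit. Over all genes 5.98% rose and 7.38% fell. The DMSO arrays averaged 7.93 ± 0.07 (SD, n = 3), and the simvastatin arrays read 7.52, 7.55 and 7.35. The lowest DMSO array read 7.85, so the groups did not overlap, and the fall was 1.37-fold (-0.45 ± 0.06, adjusted p = 0.00178). STXBP5, or tomosyn, which blocks SNARE assembly, had a change of -0.11 (95% interval -0.24 to 0.02). STXBP2, STXBP3, STXBP5L and STXBP6 lay between -0.25 and 0.05.

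Synaptotagmins, not all of which bind calcium, moved in both directions. Of 16 measured, 2 rose and 2 fell in the limma fit, against 5.98% and 7.38% of all genes. SYT1, the fast calcium sensor of synaptic release, read 9.57, 9.58 and 9.66 with DMSO and 9.35, 9.39 and 9.27 with simvastatin. The groups did not overlap, and the gene fell 1.20-fold (-0.26 ± 0.05, adjusted p = 0.0114). SYT17 went from 5.90 ± 0.11 (SD, n = 3) to 5.50 ± 0.18 (-0.40 ± 0.09 SE, adjusted p = 0.0244), and missed the threshold once DMSO replicate 1 or 3 was left out, with adjusted p from 0.0630 to 0.0837. SYT5, a calcium sensor also found on dense-core granules, read 7.24, 7.28 and 7.32 with DMSO and 7.77, 7.72 and 7.90 with simvastatin. It rose 1.43-fold (0.52 ± 0.05, adjusted p = 0.000490).

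SYT11, a synaptotagmin that does not bind calcium and is known for a role in endocytosis, rose most among the members. It read 10.85, 10.77 and 10.83 with DMSO and 11.47, 11.44 and 11.53 with simvastatin, and 10.44, 10.42 and 10.44 with simvastatin plus mevalonate. The 3 groups were fully apart, with the mevalonate arrays below those of DMSO. The rise with simvastatin was 1.59-fold (0.67 ± 0.04, adjusted p = 3.43e-05). The other synaptotagmins, SYT2, SYT3, SYT4, SYT6, SYT7, SYT8, SYT9, SYT10, SYT12, SYT13, SYT14 and SYT15, had changes from -0.15 to 0.20 that did not pass the test. SYT7, the slow, high-affinity calcium sensor, was among them with 0.20 (95% interval -0.07 to 0.47).

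The bases before the SYT11 start are shown because this gene had the largest rise and because they hold a tandem repeat that a search of the window found (chr1:155859317-155859566, plus strand). Capitals mark 2 adjoining copies of a stretch of 33 bases, which begin 130 and 97 bases before the start. An exact repeat of at least that length was present in 0.718% of the 27305 windows, and in 2 of the 71 member windows. None of the 6 motifs occurred in the SYT11 window.
SYT11: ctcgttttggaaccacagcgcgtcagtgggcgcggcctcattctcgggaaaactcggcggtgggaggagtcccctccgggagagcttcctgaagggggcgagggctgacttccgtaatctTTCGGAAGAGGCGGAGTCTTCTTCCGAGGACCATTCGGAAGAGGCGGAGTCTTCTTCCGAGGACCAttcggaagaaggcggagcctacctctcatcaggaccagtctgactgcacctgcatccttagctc

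The largest change of all was in RPH3A. It encodes rabphilin, an effector of Rab3 and Rab27, which are prenylated proteins of the vesicle surface. RPH3A read 6.57, 6.65 and 6.51 with DMSO, 5.18, 5.60 and 4.99 with simvastatin and 6.36, 6.55 and 6.36 with mevalonate added. Every simvastatin array lay below every other array, and 2 of them lay below the median of all probesets, so that the size of the fall is less certain. It fell 2.50-fold (-1.32 ± 0.14, adjusted p = 0.000493). Its relative RPH3AL, or Noc2, which acts in granule exocytosis of endocrine cells, moved the other way. It read 5.39, 5.57 and 5.43 with DMSO and 5.69, 5.77 and 5.70 with simvastatin, a rise of 0.26 ± 0.06 (adjusted p = 0.0316). Leaving out DMSO replicate 1 or 3, or any of the simvastatin arrays, left RPH3AL without a call (adjusted p from 0.0581 to 0.104). The synaptotagmin-like Rab27 effectors SYTL1, SYTL2, SYTL3, SYTL4 and SYTL5 had changes from -0.12 to 0.11. The bases before the RPH3A start are given as those of the member that changed most (chr12:112791498-112791747, plus strand). Among the 6 motifs they hold only a GC box, in capitals, which begins 20 bases before the start.
RPH3A: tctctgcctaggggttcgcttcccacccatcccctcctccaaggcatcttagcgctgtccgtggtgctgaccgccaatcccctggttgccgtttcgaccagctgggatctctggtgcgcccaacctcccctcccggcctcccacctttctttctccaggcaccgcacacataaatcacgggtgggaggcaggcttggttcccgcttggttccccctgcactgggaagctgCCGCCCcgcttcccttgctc

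Of the 6 priming factors 3 rose and 1 fell, against 5.98% and 7.38% of all genes. CADPS encodes CAPS, which primes dense-core granules. It read 7.69, 7.55 and 7.64 with DMSO, 6.79, 6.68 and 6.56 with simvastatin and 7.48, 7.38 and 7.40 with simvastatin plus mevalonate. The simvastatin arrays lay apart from all others, and the fall was 1.93-fold (-0.95 ± 0.07, adjusted p = 6.01e-05). CADPS2, its paralog, had low values (3.90 ± 0.07 SD with DMSO and 4.11 ± 0.24 with simvastatin, n = 3 each) and a change of 0.21 with a 95% interval from -0.03 to 0.45.

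Of the 4 genes for Munc13 proteins, which open syntaxin for SNARE assembly, 3 rose, against 5.98% of all genes. UNC13B read 7.67, 7.64 and 7.80 with DMSO and 8.10, 8.03 and 8.07 with simvastatin, a 1.29-fold rise (0.37 ± 0.06, adjusted p = 0.00394). UNC13A, the main form at neuronal synapses, read 8.47, 8.41 and 8.48 and then 8.68, 8.67 and 8.63. Its rise was small but its groups were apart (0.20 ± 0.04, adjusted p = 0.0127, and adjusted p = 0.0580 over all probesets). UNC13D, known from the granules of cytotoxic lymphocytes, rose by 0.23 ± 0.05 (adjusted p = 0.0255). The UNC13D call was lost without DMSO replicate 2 or simvastatin replicate 1 or 3 (adjusted p from 0.0542 to 0.0830). In all it was lost in 7 of 17 alternative settings, among them the fit over all probesets and the replicate block. UNC13C, with values from 3.37 to 3.57 on the 9 arrays, had a change of 0.03. All 4 complexins, which clamp and then assist the SNARE complex, were without a call (limma, 0 at an unadjusted p under 0.05 and 0 under any alternative setting). Over all genes 5.98% rose and 7.38% fell, so 0 of 4 is not read as a trait of the complexins. CPLX1 had a change of 0.18 (95% interval -0.01 to 0.38), and CPLX2, CPLX3 and CPLX4 lay between -0.02 and 0.02.

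**Figure D2:**
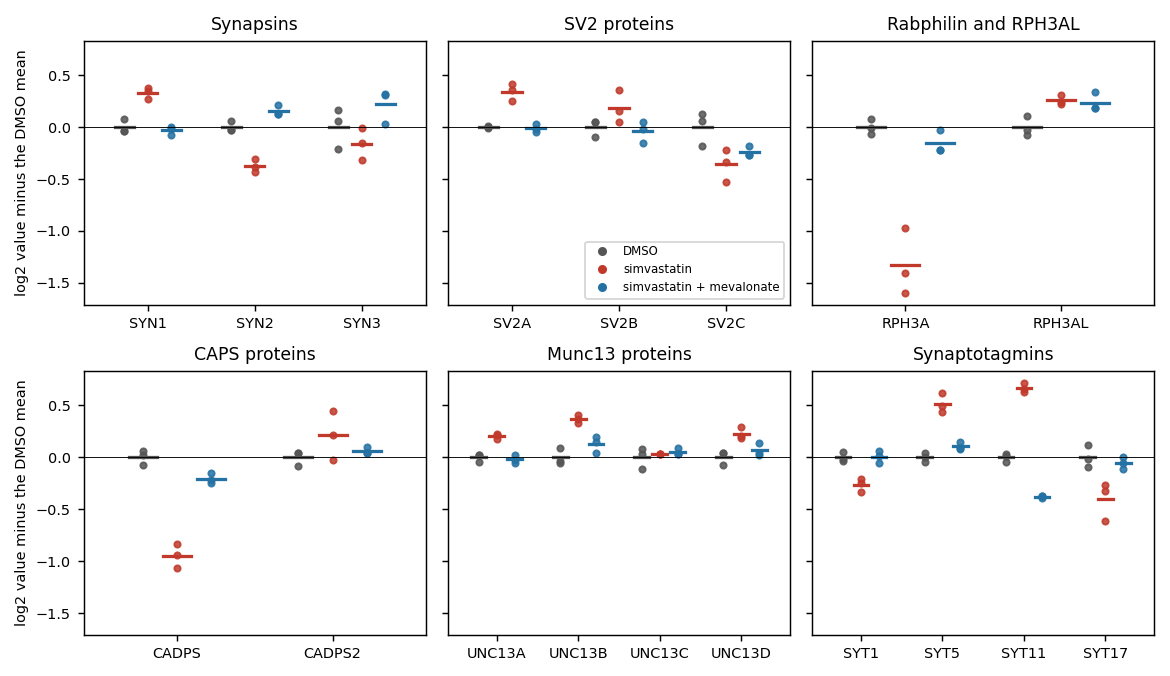
Values on each array minus the gene's DMSO mean (log2 scale) in 6 families, with points for arrays and bars for group means (3 arrays a group). With simvastatin SYN1, SV2A, RPH3AL, UNC13B, SYT5 and SYT11 lie above 0, while SYN2, SV2C, RPH3A, CADPS, SYT1 and SYT17 lie below it. SYN3, SV2B, CADPS2 and UNC13C did not change in the limma fit.

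For the active zone, the site where vesicles dock, 9 genes were grouped by symbol as scaffolds. Of these 1 fell and 1 rose, against 7.38% and 5.98% of all genes. RIMBP2 encodes a protein that ties RIM proteins to calcium channels. It read 9.04, 8.97 and 9.14 with DMSO and 8.71, 8.68 and 8.57 with simvastatin, 1.32-fold lower (-0.40 ± 0.06, adjusted p = 0.00191). RIMS4, a short member of the RIM family, read 6.51, 6.58 and 6.58 with DMSO and 6.74, 6.82 and 6.76 with simvastatin. It rose by 0.21 ± 0.04 (adjusted p = 0.0144), and was no longer called once DMSO replicate 1 was left out (adjusted p = 0.0526) or over all probesets (adjusted p = 0.0604). RIMS1, the long RIM protein of synapses, had a change of -0.10 (95% interval -0.21 to 0.01), and RIMS2 one of -0.17. For the giant scaffolds bassoon and piccolo, the changes were 0.02 (BSN, 95% interval -0.13 to 0.16) and -0.14 (PCLO). RIMBP3, RIMBP3B and RIMBP3C are near-identical copies whose signals may not be separable. Their changes were 0.12, 0.42 and -0.19, and 2 of them varied widely between arrays (SD 0.651 for RIMBP3 with simvastatin and 0.604 for RIMBP3B with DMSO).

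Genes for proteins of the vesicle membrane changed in both directions too. SV2A, a glycoprotein of synaptic and dense-core vesicles, read 8.26, 8.27 and 8.25 with DMSO, 8.62, 8.51 and 8.67 with simvastatin and 8.21, 8.29 and 8.24 with mevalonate added. Only the simvastatin arrays were raised, by 1.26-fold (0.34 ± 0.05, adjusted p = 0.00265). Its paralog SV2C read 7.38, 7.63 and 7.70 with DMSO and 7.35, 7.24 and 7.05 with simvastatin, with a gap of only 0.03 between the groups. It fell by 0.36 ± 0.10 on the log2 scale (adjusted p = 0.0455), and missed the threshold when DMSO replicate 2 or 3, simvastatin replicate 2 or 3 or any simvastatin plus mevalonate array was left out (adjusted p from 0.0692 to 0.141). SV2B had low values and a change of 0.19 (95% interval -0.01 to 0.39).

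SYNGR2, a synaptogyrin found in most cell types, read 6.79, 6.66 and 6.60 with DMSO and 7.16, 7.39 and 7.27 with simvastatin. It rose 1.51-fold (0.60 ± 0.08, adjusted p = 0.00183). The neuronal synaptogyrins SYNGR1 and SYNGR3 had changes of 0.03 and 0.22, and SYNGR4 and SYNPR changes of -0.13 and -0.12, without a call. Synaptophysin, the most used marker of such vesicles, did not pass the test either. SYP had a change of 0.14 with a 95% interval from -0.01 to 0.29 (adjusted p = 0.243), and its second probeset one of 0.16.

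Synapsins coat vesicles and hold them in the reserve pool, and the 2 genes that changed went opposite ways. SYN1 read 8.23, 8.11 and 8.11 with DMSO, 8.53, 8.42 and 8.50 with simvastatin and 8.15, 8.14 and 8.07 with simvastatin plus mevalonate. The simvastatin arrays alone were raised, by 1.26-fold (0.33 ± 0.05, adjusted p = 0.00371). SYN2 read 9.52, 9.61 and 9.52, then 9.17, 9.24 and 9.12, and with mevalonate 9.67, 9.67 and 9.76. Here the simvastatin arrays were the lowest, 1.30-fold below DMSO (-0.37 ± 0.05, adjusted p = 0.00169). SYN3 spread over a wider range within its groups, and its change of -0.16 had a 95% interval from -0.44 to 0.12.

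The 2 synapsin promoters are shown side by side because the genes moved in opposite directions. Capitals in SYN1 mark the RE1 part, which begins 233 bases before the start, and a cAMP response element, which begins 159 bases before it (chrX:47619858-47620107, minus strand). The RE1 letters occurred in 0.403% of all windows and in 2 of 71 member windows. Of the 71 members with a window 10 rose with simvastatin, and both genes with the RE1 letters, SYN1 and UNC13A, were among them. The motifs were chosen after the changes were seen, and a part of the RE1 element in the changes was not tested. In UNC13A the letters lie after the start and are not printed. SYN2 held neither element in its window, and its capitals mark 4 GC boxes (chr3:12004138-12004387, plus strand). The median GC content of the windows was 67.2% for the 10 members that rose and had a window, 63.7% for the 7 that fell, 67.3% for the 54 without a call and 58.3% for all windows.
SYN1: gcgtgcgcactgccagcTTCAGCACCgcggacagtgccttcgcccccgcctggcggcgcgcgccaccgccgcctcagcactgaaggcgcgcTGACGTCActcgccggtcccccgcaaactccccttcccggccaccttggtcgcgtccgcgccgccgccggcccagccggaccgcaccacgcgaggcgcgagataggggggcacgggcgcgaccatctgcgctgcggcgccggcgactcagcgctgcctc
SYN2: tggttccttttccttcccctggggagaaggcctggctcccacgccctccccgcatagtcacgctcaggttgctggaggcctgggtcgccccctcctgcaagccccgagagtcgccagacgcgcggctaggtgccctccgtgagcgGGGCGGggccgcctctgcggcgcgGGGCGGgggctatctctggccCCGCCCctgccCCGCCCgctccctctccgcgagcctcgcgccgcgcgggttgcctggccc

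Among the 9 antisense, divergent, readthrough and pseudogene entries 0 changed in the limma fit, where 5.98% of all genes rose and 7.38% fell. Of these entries 2 had an unadjusted p under 0.05, and at most 1 was called under an alternative setting. SNAP25-AS1, transcribed opposite the gene of the neuronal SNARE SNAP-25, read 5.47, 5.27 and 5.51 with DMSO and 5.13, 4.57 and 5.27 with simvastatin. Its change of -0.43 had a 95% interval from -0.79 to -0.06 and an adjusted p of 0.133. STX17-DT had a change of 0.41 at values near 3. The others, BSN-DT, RPH3AL-AS1, STX16-NPEPL1, STX18-AS1, STXBP5-AS1, SYNPR-AS1 and SYT14P1, lay between -0.15 and 0.37. A further 26 protein-coding symbols of the RefSeq table fit the same patterns and are not analysed here, among them SNAP25, NAPA, SNAP91, the synucleins, and the vesicular transporters SLC18A1 and SLC18A2.

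The arrays with mevalonate added were then set against those of simvastatin alone, which asks which of these differences depended on mevalonate. With mevalonate 7 members rose (7.53%, against 5.31% of all genes) and 9 fell (9.68%, against 5.72% of all genes). The median log2 change was -0.02 for the members and 0.00 for all genes. Both comparisons contain the same 3 simvastatin arrays, and each comparison's own values are given side by side. RPH3A rose by 1.17 ± 0.14 (adjusted p = 0.00113) after a change of -1.32, and CADPS by 0.74 ± 0.07 (adjusted p = 0.000259) after -0.95. SYN2 (0.53), STXBP4 (0.38), NSF (0.35), RIMBP2 (0.32) and SYT1 (0.27) rose as well.

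SYT11 fell by 1.05 ± 0.04 on the log2 scale (adjusted p = 1.26e-05), after its rise of 0.67. SYNGR2 had a change of -0.61, STX5 of -0.44, SYT5 of -0.41, STX12 of -0.37, SYN1 of -0.36, SV2A of -0.35, UNC13B of -0.24 and UNC13A of -0.22. UNC13B (adjusted p = 0.0320) missed the threshold when DMSO replicate 1, any of the simvastatin arrays, or simvastatin plus mevalonate replicate 1 or 3 was left out (adjusted p from 0.0505 to 0.103).

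**Figure D3:**
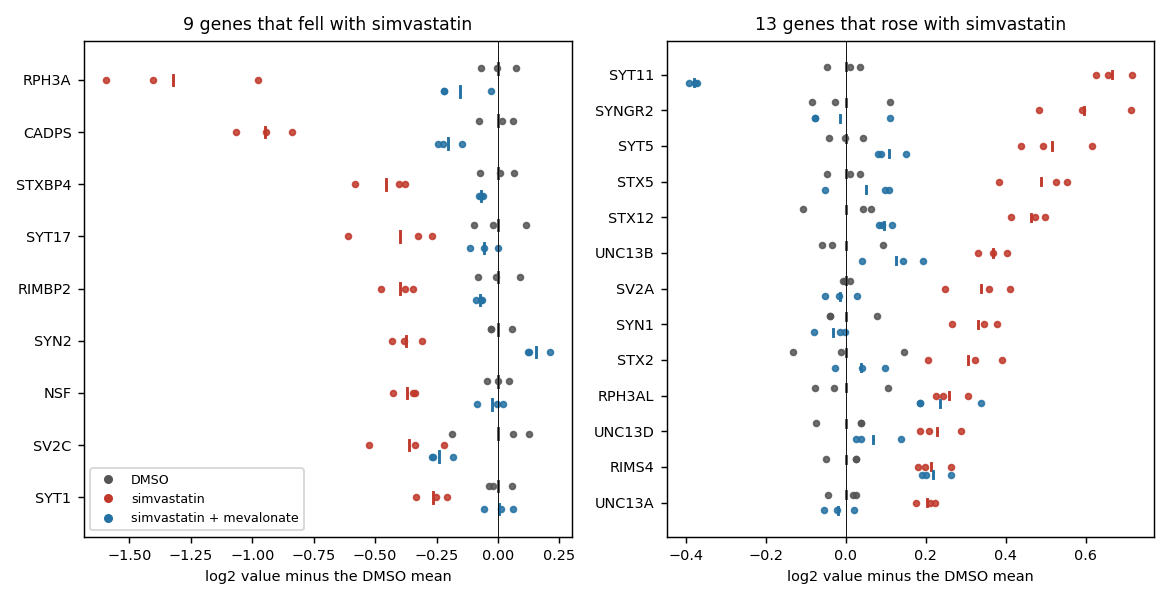
The 22 members that changed with simvastatin, with the value on each of the 9 arrays minus the gene's DMSO mean (log2 scale), and a bar for each group mean. The arrays with mevalonate lie near those with DMSO for most genes, and beside those with simvastatin alone for RPH3AL and RIMS4. All of them lie below the DMSO arrays for SYT11 and CADPS, and above these for RPH3AL, RIMS4, SYN2, STX12 and SYT5. For SV2C the mean with mevalonate (7.33) lies nearer to that with simvastatin alone (7.21) than to that with DMSO (7.57).

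The other 6 members that changed with simvastatin did not pass the test against mevalonate. RIMS4 read 6.76, 6.75 and 6.82 with simvastatin plus mevalonate, the level of simvastatin alone, and its difference between these groups was 0.00 ± 0.04 (adjusted p = 0.966). RPH3AL read 5.65, 5.65 and 5.80, a difference of -0.02 ± 0.06 (adjusted p = 0.883). SV2C had a difference of 0.12 ± 0.10. For SYT17 (0.34, adjusted p = 0.0516), STX2 (-0.27, adjusted p = 0.0688) and UNC13D (-0.16, adjusted p = 0.107) the values moved toward those with DMSO without passing the threshold.

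Finally, simvastatin plus mevalonate was set against DMSO, to measure what remained. Of the 93 members 0 rose (0.0336% of all genes rose) and 1 fell (0.0403% of all genes fell), with 10 at an unadjusted p under 0.05 in either direction. The share of all genes at that unadjusted p was not counted, so the 10 are not read as a trait of the members. SYT11 was the member that fell, from 10.81 ± 0.04 (SD, n = 3) to 10.44 ± 0.01, a change of -0.38 ± 0.04 (SE, adjusted p = 0.0222). The call was lost without any 1 of the DMSO or simvastatin plus mevalonate arrays (adjusted p from 0.0936 to 0.128), with only these 2 groups in the fit (0.0781) and over all probesets (0.115). The 3 arrays of each group stayed apart.

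Several intervals did not reach 0 without passing the adjusted threshold. RIMS4 remained at 0.22 (95% interval 0.12 to 0.32, adjusted p = 0.121) and RPH3AL at 0.24 (0.09 to 0.38, adjusted p = 0.239). CADPS stood at -0.20 (-0.36 to -0.05), SV2C at -0.24 (-0.46 to -0.02) and SYN2 at 0.15 (0.04 to 0.27). Among members without a call in any comparison, STXBP3 stood at -0.24 (-0.45 to -0.03) and SYT4 at -0.21 (-0.34 to -0.08). RPH3AL-AS1, also without a call, stood at 0.26 (0.04 to 0.48). SYT9, which had a change of -0.15 with simvastatin, stood at -0.35 with mevalonate added (adjusted p = 0.0927). SYT9 has a mean of 5.16 over the 9 arrays, under the median of all probesets, where changes may be less well determined. It read 5.44, 5.25 and 5.30 with DMSO and 4.92, 5.07 and 4.95 with simvastatin plus mevalonate. For NSF, SYT1, SV2A, SYN1, UNC13A and STX5 the intervals ran from -0.15 at the lowest to 0.20 at the highest and included 0.

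**Figure D4:**
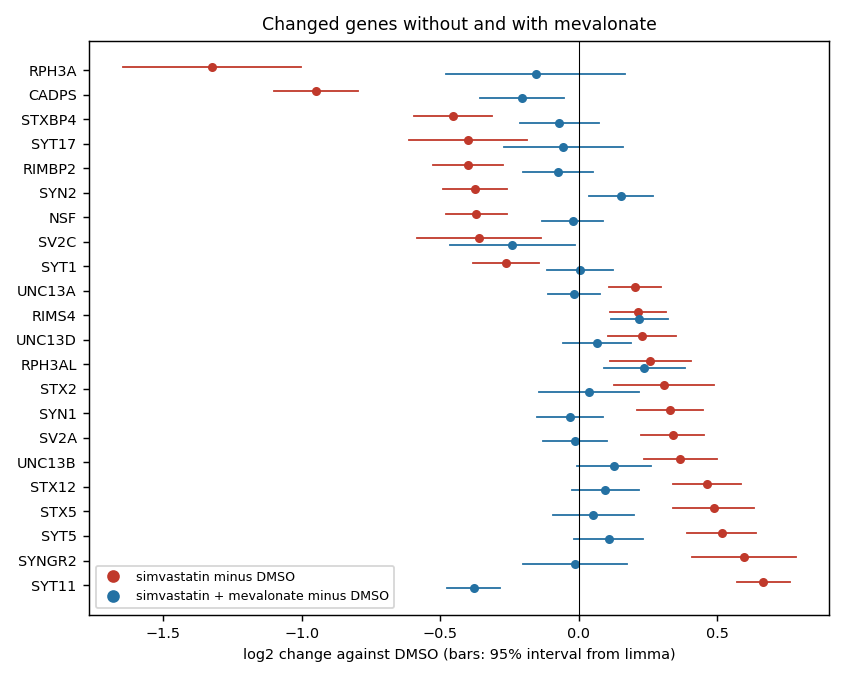
Log2 change against DMSO of the 22 members that changed with simvastatin, without mevalonate (red) and with it (blue), with 95% intervals from limma (3 arrays a group). The blue interval includes 0 for most genes, and it lies below 0 for SYT11, CADPS and SV2C and above 0 for RIMS4, RPH3AL and SYN2.

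Genes around this machinery were counted in lists, to be read against the 5.98% of all genes that rose and the 7.38% that fell with simvastatin. In the tethering list the 20 measured genes are exocyst and SCAMP genes and regulators or partners of Rab proteins, with no RAB3 or RAB27 gene among them. With simvastatin 3 of these 20 rose and 0 fell. They were RAB3IL1 (0.49 ± 0.12), which activates Rab proteins of the secretory pathway, and the exocyst genes EXOC6B (0.33 ± 0.05) and EXOC8 (0.18 ± 0.04). In the endocytosis list 3 of 18 rose and 0 fell, led by SYNJ2, a lipid phosphatase that helps uncoat vesicles (0.83 ± 0.07), with EPS15 (0.38 ± 0.05) and BIN1 (0.28 ± 0.08). When mevalonate was added, RAB3IL1, EXOC6B and SCAMP5 of the first list and SYNJ2, EPS15 and SH3GLB1 of the second fell, SYNJ2 by 1.01 ± 0.07 on the log2 scale, and 0 rose, against 5.72% and 5.31% of all genes. EXOC8 (-0.14, adjusted p = 0.0608) and BIN1 (-0.20, adjusted p = 0.160) did not pass the test. Among 10 active zone partners 1 rose (CASKIN1, 0.28 ± 0.06), and among 19 other SNARE and SM-protein genes 1 rose (SCFD2, 0.16 ± 0.04). None of the 12 listed calcium channel genes is analysed here.

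Of 17 measured genes for dense-core granule cargo and processing 7 fell and 1 rose with simvastatin, against 7.38% and 5.98% of all genes. When mevalonate was added 5 rose and 2 fell, against 5.31% and 5.72%. The lists overlap, since DBH, CHGA and CHGB, 3 of the 7 that fell, are also among the noradrenergic markers counted above. DBH, the granule enzyme that makes noradrenaline, had a change of -1.21 ± 0.04, CHGA, a granule core protein, of -0.70 ± 0.05, and VGF, a peptide precursor, of 1.09 ± 0.06. The medians of the 5 lists with measured genes were between -0.07 and 0.06 with simvastatin, against 0.01 over all genes.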

How the data were processed

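The authors deposited log2 expression values, 1 per probeset and array. That scale was read from the values, the lowest of which was 0.921. GCRMA and HOMER are the tools listed in the submitters' processing notes, without versions or roles; for the genome build the sources used here give nothing. The near-equal array medians mean that a shift of all genes would not show. Of 14884 genes, 57.4% had an identical value on 2 or more arrays, as had 55.9% of the members. The spread between arrays may be understated for such genes. Among the members that changed these are RPH3A, RPH3AL, SYN2, SYNGR2 and UNC13D, whose p-values may be too small.

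Of 53617 probesets 16098 carried 1 gene symbol, and all matched RefSeq by Entrez identifier. R 4.3.3 with limma 3.58.1 (lmFit, eBayes) fitted 3 group means to 9 arrays (6 residual degrees of freedom). The p-values were adjusted by Benjamini-Hochberg over all genes. The procedure was also run on simulated arrays with independent noise and without the identical values of the real arrays. That run did not cover changes as small as many of those called here. Genes with values are members changed in any comparison, the brightest and most changed of each role, the measured core release genes, and neighbours with the largest changes; others are given as ranges, some with values chosen after they were seen. Members and lists were chosen with earlier results of these data known. The motifs were chosen after the changes were seen.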

Additional observations from a re-analysis of the deposited data

How the results depend on the processing

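The counts were recomputed under 17 alternative settings: quantile normalization, centring on the median, only the compared groups in the fit, trend and robust estimation, the mean over probesets, all probesets in the fit, dim genes left out, a replicate block and each array left out. No change called in the report turned its sign in any of them. Of the 22 calls with simvastatin 15 held in every setting, and of the 16 with mevalonate added 15 did. With all probesets in the fit, 8 members rose with simvastatin in place of 13, 0 in place of 1 fell against DMSO with mevalonate added, and 9 neighbouring genes changed in place of 16. With only the compared groups in the fit, that 1 fall was also lost (0). Leaving out 1 array at a time gave 11 to 12 members that rose and 7 to 9 that fell with simvastatin, 7 to 8 that rose and 8 to 9 that fell with mevalonate added, 0 to 1 that fell and 0 to 0 that rose with mevalonate against DMSO, and 11 to 15 neighbouring genes.

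The replicate numbers did not pair the arrays, since deviations of same-numbered arrays correlated at -0.08 to 0.05. With the replicate block 11 members rose and 8 fell with simvastatin, and 0 fell against DMSO with mevalonate added. Precision is limited by the 3 arrays per group. For the 22 members under the median of all probesets the signal may lie close to background, which was not measured.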
